A study of Drosophila melanogaster with 12 samples.

Results

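The transcripts of the glycolysis enzymes were followed in fly heads through a day of cycling temperature and a day of constant temperature. The set was defined by gene, as the probe sets annotated to *Pgi*, *Pfk*, *Ald1*, *Tpi*, *Gapdh1*, *Gapdh2*, *Pgk*, *Pglym78*, *Eno* and *Pyk*, with the array's control probe sets left out. Of these 10 genes 7 had a probe set of their own, 1 each, so the set held 7 of the 13966 probe sets other than controls. The only probe set annotated to *Tpi* was annotated to a second gene as well and was named for neither, and *Gapdh2* and *Pyk* were not analysed here.

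All flies were of the *y w* strain, which carries body- and eye-colour markers and has a working circadian clock, and all were kept in constant darkness. They were reared at 25 °C until the early pupal stage and then in a thermocycle of 18 °C and 25 °C, and adults were frozen every 4 h on the last day of that cycle (CA, for cold/ambient) and on the following day at 25 °C throughout (AA, for ambient/ambient). On the CA day hours 2, 6 and 10 fell in the cryophase at 18 °C and hours 14, 18 and 22 in the thermophase at 25 °C, and the same hours of the AA day form its subjective cryophase and subjective thermophase. Each time point was 1 pool of heads on 1 Affymetrix Drosophila Genome 1 array, which gave 12 arrays in 4 groups of 3. The 3 arrays of a group are different hours, so the spread within a group includes any change with the hour, and the sources do not say whether the pools were separate cultures. Values are the log2 expression values of the authors' robust multi-array average, and a change is a difference between group means on that scale, so that 1 is a doubling.

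Glycolysis splits glucose into pyruvate in the cytoplasm. In its preparatory steps phosphoglucose isomerase (*Pgi*), phosphofructokinase (*Pfk*, the committed and most tightly regulated step) and aldolase (*Ald1*) convert a hexose phosphate into triose phosphates at the cost of ATP. In its payoff steps glyceraldehyde-3-phosphate dehydrogenase (*Gapdh1*), phosphoglycerate kinase (*Pgk*), phosphoglycerate mutase (*Pglym78*) and enolase (*Eno*) carry the trioses toward pyruvate, with NADH and ATP as products. In insect brains glial cells are glycolytic and supply neurons with its products, and muscle also holds high levels of these enzymes. In pooled heads fewer cells of a type and less RNA per cell cannot be told apart.

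The arrays were alike in level, with medians from 4.35 to 4.39, and any 2 of them had an r of 0.974 to 0.995 over the probe sets. A probe set was tested when more than 6 of its 12 values exceeded 2.92, the 20th percentile of all values, and 11149 of the 13966 (79.8%) did, among them all 7 glycolysis probe sets. All 9 neuronal markers with a probe set of their own passed this filter, as did all 5 photoreceptor markers, while *ninaE*, *ninaC*, *norpA* and *Syt1* were not analysed here. The arrays differed in a control measure, the signal of the 3' probe set of *eIF-4a* minus that of its 5' probe set, which is read as a sign of how complete the labelled RNA was. It was 2.74, 2.44, 2.73, 1.85, 1.55 and 3.23 at CA2, CA6, CA10, CA14, CA18 and CA22, and 0.96, 2.40, 1.54, 2.39, 1.48 and 3.08 at the same hours of AA. The same difference on the actin and *Gapdh* controls did not order the arrays alike. That of actin was also highest at CA22 (1.94), and that of *Gapdh* was also lowest at AA2 (2.09). At AA22, however, that of actin was 1.25, in a range of 1.17 to 1.94, and that of *Gapdh* was highest at AA18, at 2.78.

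Among the preparatory enzymes *Pgi* stood at 8.80, 8.83 and 9.06 in the CA cryophase (hours 2, 6 and 10) and at 9.57, 9.11 and 9.15 in the CA thermophase (hours 14, 18 and 22). Its AA values were 9.02, 8.91 and 9.15 in the subjective cryophase and 9.23, 9.25 and 8.83 in the subjective thermophase. All 3 thermophase arrays lay above all 3 cryophase arrays on the CA day, with the highest value of the time course 2 h after the step to 25 °C, and the groups overlapped on the AA day. *Pfk* was at 7.07, 7.30 and 7.28 in the CA cryophase and at 7.55, 7.41 and 6.83 in the thermophase. On the AA day it was at 7.83, 7.40 and 7.57 and then at 6.99, 7.42 and 6.93. *Pfk* thus spanned both ends of its range in the 4 h between CA22, its lowest array, and AA2, its highest, which were both collected at 25 °C. *Ald1* was at 9.98, 10.10 and 10.32 and then 10.55, 10.39 and 10.04 in CA, and at 10.38, 9.96 and 10.44 and then 10.52, 10.44 and 10.01 in AA. At hours 14, 18 and 22 the 2 days of *Ald1* were within 0.05 of each other.

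Among the payoff enzymes *Gapdh1* held 10.31, 10.38 and 10.42 in the CA cryophase and 11.08, 10.75 and 10.15 in the thermophase. Its AA values were 10.89, 10.58 and 10.79, followed by 10.40, 10.90 and 9.86. The 3 cold arrays were close together (SD 0.05), whereas the SD was 0.47 in the CA thermophase, 0.16 in the subjective cryophase and 0.52 in the subjective thermophase. *Pgk* had the widest range of the 7, 1.75, with 7.05, 7.23 and 7.36 and then 8.26, 8.09 and 7.07 in CA. In AA it was at 8.52, 7.18 and 8.07 and then at 7.56, 8.28 and 6.76, with high and low arrays in both phases. Its SD within the groups other than the CA cryophase was 0.64 to 0.76. *Pglym78* ran from 9.63, 9.49 and 9.78 to 9.98, 9.95 and 9.44 in CA and from 10.19, 9.70 and 10.01 to 9.77, 9.997 and 9.44 in AA. *Eno* ran from 9.13, 9.33 and 9.38 to 9.78, 9.73 and 9.15 in CA and from 9.68, 9.08 and 9.66 to 9.25, 9.72 and 8.91 in AA. Both were high at AA2, AA10 and AA18 and lower at the other AA arrays, as *Pgk* also was. On the AA day AA2 was the highest array of 3 of the 7, *Pfk*, *Pgk* and *Pglym78* (25.6% of all tested probe sets). The 7 transcripts varied more within groups than most probe sets did, with a pooled within-group SD of 0.20 (*Pgi*) to 0.61 (*Pgk*), at the 79.3rd to 99.6th percentile of all tested probe sets, whose median SD was 0.13.

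**Figure D1:**
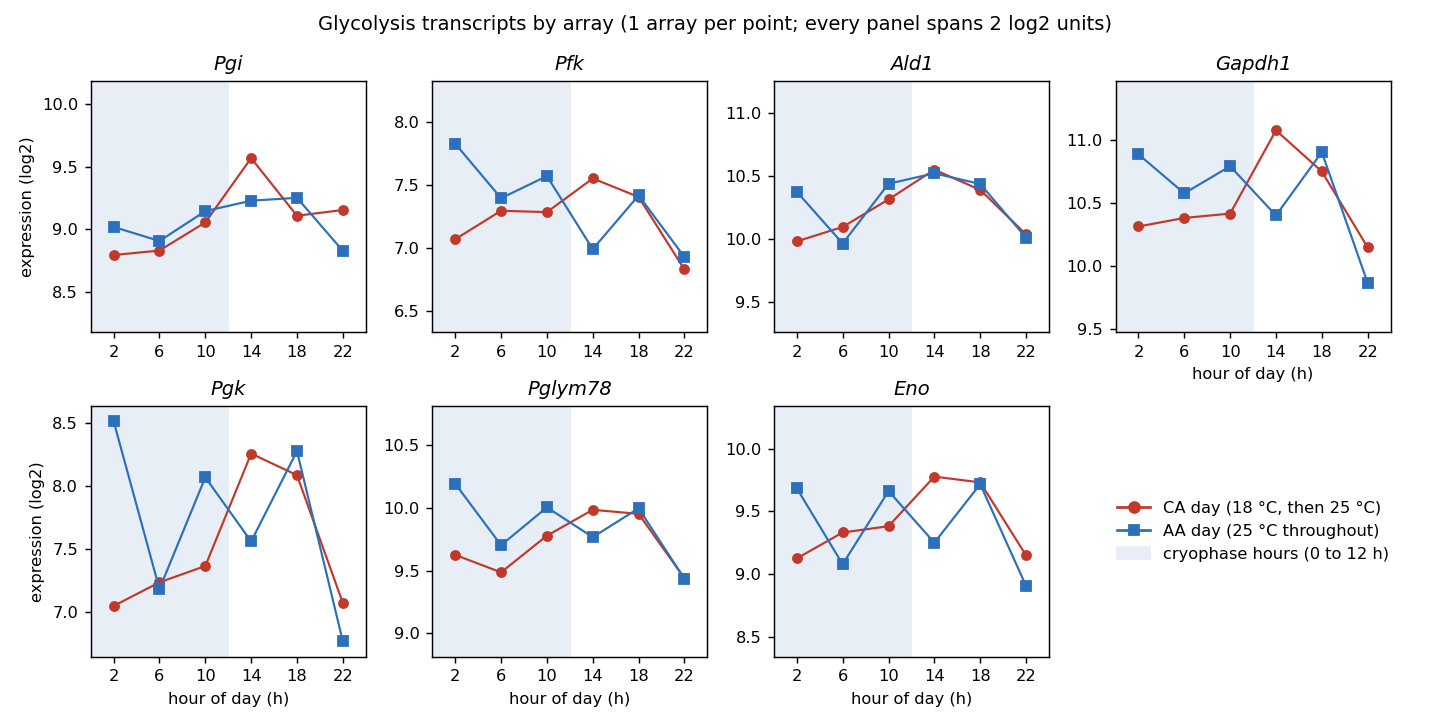
Log2 expression of the 7 glycolysis transcripts (vertical axis, 2 log2 units in every panel) against hour of day, with 1 array per point. Circles are the CA day, squares the AA day, and the shaded hours are the cryophase, which was at 18 °C on the CA day only. On the CA day all 7 were highest at hour 14, the first array at 25 °C, while on the AA day most alternated between high and low arrays.

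On the CA day every transcript had its highest array at CA14, 2 h into the warm phase. This held for 7 of 7 transcripts, against 8.66% of all tested probe sets. From CA10 to CA14 all 7 were higher (51.3% of all), by 0.21 (*Pglym78*) to 0.90 (*Pgk*) with a median of 0.40, whereas the median step of all probe sets was 0.01. From CA10 to CA14 *Pgi* gained 0.51 and *Gapdh1* 0.66. Between the same hours of the AA day, with no change of temperature, *Pgi* and *Ald1* gained 0.08 each. The other 5 were lower at AA14 (46.5% of all), by 0.24 (*Pglym78*) to 0.58 (*Pfk*) units. Steps of similar size came where the temperature did not change. From CA22 to AA2 6 of 7 were higher (59% of all), with a median step of 0.74, against 0.07 over all, and *Pgk* up by 1.45. From AA18 to AA22 all 7 were lower (51.6% of all), with a median step of -0.56, against -0.01 over all. These steps are differences between single arrays and have no replicate check.

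The question of the first comparison was whether the warm phase of the thermocycle differed from the cold phase. All 7 changes were positive (50.2% of all probe sets), with a median of 0.27 against 0.00 over all, and 0 of 7 passed limma with Benjamini-Hochberg adjustment over the 11149 probe sets, of which 0.00897% passed. *Pgi* had the smallest p, with a change of 0.38 (SE 0.14, 95% interval 0.07 to 0.70, 3 arrays a group, adjusted p = 0.995). It was the only one of the 7 with an unadjusted p under 0.05 (1.5% of all probe sets were higher at that limit) and the only one whose groups did not overlap (4.32% of all were higher without overlap). *Pgk* changed by 0.59 (SE 0.41), *Gapdh1* by 0.29 (SE 0.25), *Eno* by 0.27 (SE 0.22), *Ald1* by 0.20 (SE 0.17), *Pglym78* by 0.16 (SE 0.18) and *Pfk* by 0.05 (SE 0.19), all within the spread between arrays (adjusted p = 0.995 each). Single arrays set the size of the median, which was 0.08 without CA14 and 0.44 without CA22. With arrays weighted by how closely they fitted the group means *Pgi* passed the threshold (change 0.59, adjusted p = 0.0453), in a fit that gave CA14 a weight of 6.12 and the other 11 arrays weights of 0.42 to 1.69.

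The second comparison asked whether the former phases still differed at 25 °C throughout. On the AA day 5 of 7 changes were negative (47.4% of all), with a median of -0.23 against 0.01 over all, and *Pgi* (0.08, SE 0.14) and *Ald1* (0.06, SE 0.17) were positive. Of the 7, 0 passed limma with adjustment, as did 0% of all probe sets. *Pfk* had the smallest p, with a change of -0.49 (SE 0.19, 95% interval -0.89 to -0.08, adjusted p = 0.883), and it was the only one with an unadjusted p under 0.05 (3.52% of all were lower at that limit). For *Gapdh1* the change was -0.36 (SE 0.25), for *Pgk* -0.39 (SE 0.41), for *Pglym78* -0.23 (SE 0.18) and for *Eno* -0.18 (SE 0.22), with adjusted p from 0.909 to 0.950. The groups of all 7 overlapped. Leaving out AA22, the lowest AA array of 6 transcripts (17.1% of all probe sets), brought the median to -0.00, and leaving out AA18 brought it to -0.40.

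The phase difference in CA exceeded that in AA for all 7 transcripts (47.9% of all probe sets were positive), by a median of 0.46. The difference of differences was 0.98 (SE 0.57) for *Pgk*, 0.65 (SE 0.35) for *Gapdh1*, 0.53 (SE 0.26) for *Pfk*, 0.46 (SE 0.32) for *Eno*, 0.40 (SE 0.25) for *Pglym78*, 0.30 (SE 0.20) for *Pgi* and 0.13 (SE 0.25) for *Ald1*. Here 0 of 7 passed limma with adjustment (adjusted p = 0.997 each, 0% of all), and 0 of 7 had an unadjusted p under 0.05 (1.86% of all were positive at that limit). *Pfk* had the smallest p of the 7. The separate lean of the CA and the AA day was therefore not distinguished from the spread between arrays. The payoff enzymes, with a median of 0.55 over 4 genes, and the preparatory enzymes, with a median of 0.30 over 3, were not tested against each other.

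Between the days the comparisons use the same arrays as those above. In the cryophase hours, the only ones at which temperature differed, all 7 were lower at 18 °C in CA than at 25 °C in AA (51.1% of all probe sets), with a median of -0.34 against 0.00 over all. The change, CA minus AA, was -0.71 (SE 0.41) for *Pgk*, -0.38 (SE 0.19) for *Pfk*, -0.38 (SE 0.25) for *Gapdh1*, -0.34 (SE 0.18) for *Pglym78*, -0.19 (SE 0.22) for *Eno*, -0.13 (SE 0.14) for *Pgi* and -0.13 (SE 0.17) for *Ald1*. The groups did not overlap for *Pfk* and *Gapdh1*, 2 of 7 (7.88% of all were lower without overlap), and 0 of 7 passed limma with adjustment (0% of all, adjusted p from 0.721 to 0.861, 0 with an unadjusted p under 0.05 and 3.93% of all lower at that limit). With the days paired by hour (hour of day as a block) 4 of 7, *Pglym78*, *Pgk*, *Gapdh1* and *Pfk*, had an unadjusted p under 0.05, against 7.96% of all that were lower at that limit in that fit, and 0 of 7 passed with adjustment (smallest adjusted p = 0.137, *Pglym78*). By hour, all 7 were lower in CA at hour 2 (51.7% of all), with a median of -0.57, and at hour 10 (51.1% of all), with a median of -0.28. At hour 6 3 were higher and 4 lower, with a median of -0.08. In the thermophase hours, at 25 °C on both days, all 7 changes were positive (45.6% of all), from 0.00 (*Ald1*, SE 0.17) to 0.27 (*Pgk*, SE 0.41), with a median of 0.17 (adjusted p = 0.999 each, 0 of 7 with an unadjusted p under 0.05, 1.61% of all). At hour 14 all 7 were higher in CA (45.5% of all), with a median of 0.53, at hour 18 only *Eno* was, by 0.01, and at hour 22 6 of 7 were (45.4% of all), with a median of 0.24.

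**Figure D2:**
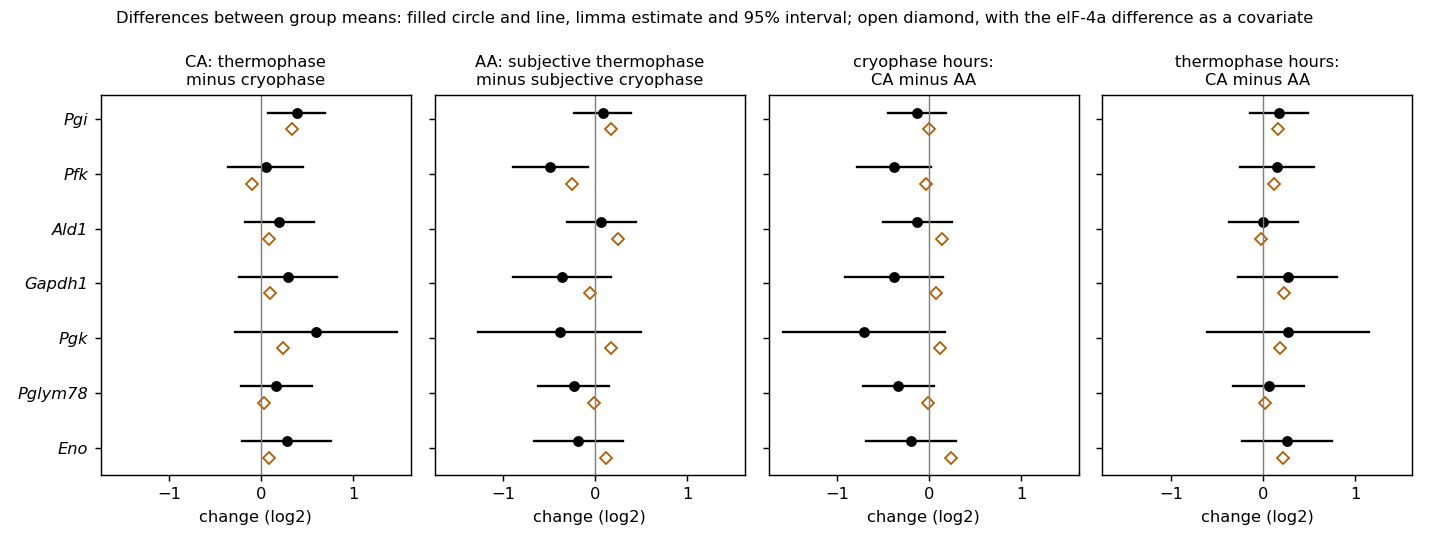
Changes of the 7 transcripts between group means (horizontal axis, log2) in the 4 pairwise comparisons, 3 arrays a group. Filled circles with lines are limma estimates with 95% intervals, and open diamonds the estimates with the *eIF-4a* control difference as a covariate. Only the intervals of *Pgi* in CA and *Pfk* in AA leave out 0, and most diamonds lie nearer 0 than their circles.

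The daily profile was also scored by F24, the share of a profile's variance in its 24-h Fourier component, with a permutation p over time orders. On the CA day F24 was 0.97 for *Ald1* (exact permutation p = 0.0333 over all 60 orders, adjusted p = 0.917), 0.82 for *Pgk*, 0.81 for *Eno*, 0.73 for *Pgi* and *Pglym78*, 0.69 for *Pfk* and 0.68 for *Gapdh1*. All 7 peaked from 12.6 h (*Pfk*) to 15.4 h (*Pgi*), within the window of 12 to 16 h that held 16.1% of all peaks. This window was not among the planned comparisons, so the count is a description without a test. *Ald1* was the only one with an unadjusted p under 0.05 (3.19% of all). On the AA day 3 of 7 peaked in that window (16.8% of all), and 0 had an unadjusted p under 0.05 (2.41% of all). *Pgi* (F24 of 0.65) and *Ald1* (0.41) both peaked at 14.2 h, against 15.4 and 14.1 h on the CA day. F24 was 0.12 for *Gapdh1*, 0.05 for *Pglym78*, 0.04 for *Eno* and 0.01 for *Pgk*. *Pfk* had an F24 of 0.31 with a peak at 5.1 h. Over both days, with day means removed, *Pgi* and *Ald1* had an F24 of 0.65 each, with peaks at 14.9 and 14.1 h (permutation p = 0.0138 and 0.0317, adjusted p = 0.541 and 0.607), and the other 5 had 0.14 to 0.25. These 2 of 7 compare with 7.8% of all probe sets at that limit. The 60 orders of a single day allow no p below 0.0167, so that an adjusted call on 1 day could hardly be reached and its absence says nothing. Over both days 0 of 7 passed after adjustment (0% of all), and a harmonic regression in limma gave 0 of 7 as well (0.00897% of all over both days, adjusted p of 0.465 or above for the 7).

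The 7 transcripts moved together from array to array. Over the 12 arrays their 21 pairs had Pearson r from 0.27 (*Pgi* with *Pfk*) to 0.95 (*Pgk* with *Eno*), with a median of 0.81. The payoff enzymes were closest to each other, with *Pgk* and *Pglym78* at 0.95 over all arrays, 0.91 within CA and 0.98 within AA. *Pgi* was closest to *Ald1* (0.80, and 0.91 within AA), and in AA its r with *Pfk* was 0.14. These values describe arrays that share 1 normalization and differ in the control measure above, and they carry no test.

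**Figure D3:**
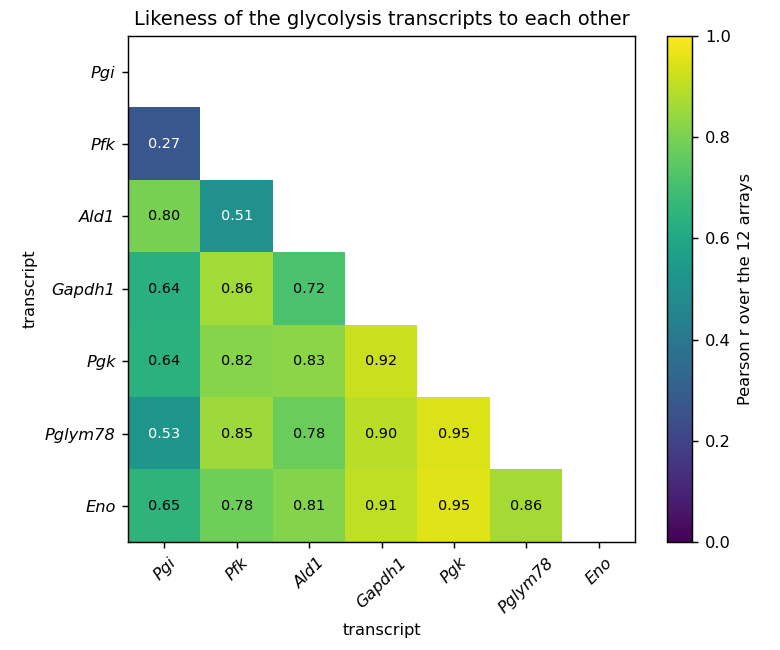
Pearson r over the 12 arrays for each pair of the 7 transcripts, on a colour scale from 0 to 1. The payoff enzymes and *Pfk* form a block of high values, and *Pgi* has the lowest, with 0.27 against *Pfk*.

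This shared movement followed the *eIF-4a* control difference. The mean deviation of the 7 transcripts from their own averages was highest at CA14 (0.40), AA2 (0.36) and AA18 (0.29) and lowest at AA22 (-0.46) and CA22 (-0.31), and it ran inversely to the control difference (Pearson r = -0.912 with a permutation p of 6e-05, or 0.00038 after adjustment over 19 relations, and Spearman rho = -0.902 with a permutation p of 0.0001, or 0.000633 adjusted). Without AA2 and AA18, the arrays farthest from the median of the control difference, r was -0.891. It was -0.863 within CA and -0.976 within AA. By gene, *Pgk* had the strongest relation (r = -0.943 with a permutation p of 2e-05, or 0.00038 adjusted, and rho = -0.923 with 5e-05, or 0.000633 adjusted). Without those 2 arrays its r was -0.909, and it was -0.902 within CA and -0.98 within AA. *Pglym78* (r = -0.931), *Pfk* (-0.89), *Gapdh1* (-0.876) and *Eno* (-0.865) were close behind, with adjusted permutation p of 0.0012 or less for r and of 0.0234 or less for rho. For these 4 r was -0.851 to -0.888 without those 2 arrays, -0.827 to -0.918 within CA and -0.903 to -0.993 within AA. For *Ald1* r was -0.679 (adjusted permutation p = 0.0476, rho = -0.643, adjusted 0.073) and for *Pgi* -0.378 (adjusted permutation p = 0.43, rho = -0.434, adjusted 0.341), and without those 2 arrays it was -0.692 and -0.457. Among all tested probe sets 7.15% had an r below -0.8 with this measure, as 5 of the 7 did.

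With the *eIF-4a* difference as a covariate most changes came closer to 0. The covariate itself differed between groups, at 2.44 to 2.74 in the CA cryophase and 0.96 to 2.40 in the AA subjective cryophase. The fit therefore also takes away any part of a group difference that goes with it. The median change was 0.09 in the CA comparison, 0.11 in AA, 0.07 for the difference of differences and 0.07 in the cryophase hours, with *Pgk* at 0.24, 0.17, 0.07 and 0.12. *Pgi* kept most of its CA change, at 0.33 (SE 0.13, unadjusted p under 0.05, adjusted p = 0.791). *Pfk* in AA was at -0.25 (SE 0.10, unadjusted p under 0.05, adjusted p = 0.635). *Eno* moved to the other side of 0 in the cryophase hours, at 0.24 (SE 0.11, unadjusted p under 0.05, adjusted p = 0.999). In the thermophase hours it was at 0.22 (SE 0.09, unadjusted p under 0.05, adjusted p = 0.835). The changes of the 7 in those hours ran from -0.02 (*Ald1*) to 0.22 (*Gapdh1*), where they had been 0.00 to 0.27. In that fit 0 of 7 passed in any comparison. The same difference taken on the actin and *Gapdh* controls did not pass in its relation with the mean of the 7 (r = -0.462 and -0.0575, adjusted permutation p = 0.276 and 0.911, rho = -0.413 and -0.196, adjusted 0.348 and 0.738). Nor did that of the control probe sets for *Gapdh* with the *Gapdh1* probe set (r = -0.173 for the 3', -0.00413 for the middle and -0.127 for the 5' set, adjusted permutation p of 0.754 or above, rho of -0.0839, -0.0839 and -0.0909, adjusted 0.801 each). Within CA these r were 0.379, 0.51 and 0.406, and within AA -0.491, -0.483 and -0.444. The 3' control was lowest at AA2, at 9.80, where *Gapdh1* was at 10.89.

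**Figure D4:**
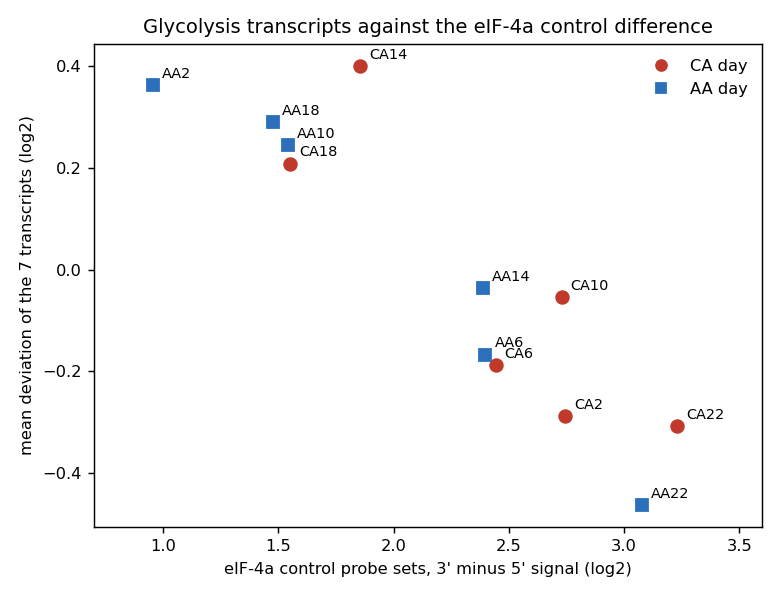
Mean deviation of the 7 transcripts from their averages over the 12 arrays (vertical axis, log2) against the 3' minus 5' signal of the *eIF-4a* controls (horizontal axis, log2), 1 point per array. Circles are CA and squares AA arrays, and points fall from AA2 (0.96 and 0.36) to CA22 (3.23 and -0.31), r = -0.912.

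The heads also held transcripts of other tissues, whose marker scores were set against the glycolysis transcripts. Of 13 listed gut markers 11 were measured and passed the filter, and the phase changes of all 11 were positive on both days (median 0.56 in CA and 0.43 in AA). Over all 11149 probe sets 50.2% were positive in CA and 5856 in AA. Their summed log2 level was 58.0 to 70.9 in the CA cryophase, 60.1 to 77.9 in the thermophase, 58.3 to 61.5 in the subjective cryophase and 66.5 to 70.2 in the subjective thermophase. The gut score had r = -0.357 with the mean of the 7 (adjusted permutation p = 0.43, rho = -0.217, adjusted 0.731), and with it as a covariate the CA changes were 0.24 (*Pfk*) to 0.97 (*Pgk*). In that fit the median of the 7 was 0.42 in CA and 0.029 in AA, where it had been -0.23. Muscle markers, 8 of 13 listed, had a summed level of 50.8 to 51.8, 51.2 to 52.3, 51.4 to 51.5 and 49.3 to 50.4 in the same 4 groups and r = 0.191 (adjusted permutation p = 0.754, rho = 0.0839, adjusted 0.801). In the difference of differences 5 muscle markers were positive and 3 negative, with a median of 0.11 (0 passed limma with adjustment). The 3 with an unadjusted p under 0.05 were *Mlc2* (0.61), *Act79B* (0.34) and *Prm* (0.91), a myosin light chain, an actin and paramyosin. Of all probe sets 1.86% were positive at that limit. The r of these 3 with the *eIF-4a* difference was -0.64, 0.03 and -0.757. Among the other muscle markers it ran from -0.652 (*sls*) to 0.881 (*Mlc1*). Neuronal, photoreceptor, fat body and male reproductive tract scores had r of 0.157, -0.318, -0.21 and -0.486 (adjusted permutation p from 0.256 to 0.754, rho of 0.217, -0.273, -0.161 and -0.476, adjusted 0.288 to 0.784). Within CA and within AA r was -0.19 and -0.633 for gut, 0.465 and 0.25 for muscle, 0.103 and 0.281 for neurons, -0.167 and -0.382 for photoreceptors, -0.403 and 0.0509 for fat body, and -0.235 and -0.836 for the male tract. The part of the tissues other than gut in the changes was not tested.

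Genes on either side of glycolysis had changes in both directions on the CA day. Of the genes that bring hexose into the pathway 5 of 6 listed were measured, and 2 changes were positive and 3 negative in the CA comparison (median -0.05). *Tret1-1*, a trehalose transporter, was at -0.35 (SE 0.16, unadjusted p under 0.05, adjusted p = 0.995), and *Hex-A*, a hexokinase, at -0.19 (SE 0.20). Of 9 genes of trehalose and glycogen metabolism 4 were positive and 5 negative (median -0.09), with *Treh*, which cleaves trehalose to glucose, at -0.20 (SE 0.15). In the cryophase hours, in which all 7 glycolysis changes were negative, 8 of these 9 were positive (median 0.14), against 5455 of all 11149 probe sets. *Treh* was at 0.40 (SE 0.15, unadjusted p under 0.05, adjusted p = 0.721). Of the 5 of hexose entry 4 were positive (median 0.07). *Tps1*, the trehalose-making enzyme, was the exception among the 9, with a change of -0.31 (SE 0.22). Its r with the *eIF-4a* difference was -0.883, and that of *Treh* was 0.736.

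The 3 genes of gluconeogenesis bypass the irreversible steps of glycolysis in the opposite direction. *Pepck2*, a phosphoenolpyruvate carboxykinase, was at 5.25, 5.80 and 6.76 in the CA cryophase and at 5.46, 5.14 and 5.30 in the thermophase, while its AA values lay between 4.97 and 5.39. CA10, the last cold array, was its highest and CA6 the next. Its change was -0.64 in the CA comparison (SE 0.28, unadjusted p under 0.05, adjusted p = 0.995) and 0.75 in the cryophase hours (SE 0.28, unadjusted p under 0.05, adjusted p = 0.721). *fbp*, fructose-1,6-bisphosphatase, was at -0.30 in the CA comparison (SE 0.19) and *Pepck1* at 0.09 (SE 0.24).

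Of 9 listed genes of pyruvate and redox metabolism 5 were measured, with a median of -0.05 in the CA comparison. Their median was 0.20 in the cryophase hours and 0.14 in the thermophase hours. In the cryophase hours *Argk1*, arginine kinase, was at 0.28 (SE 0.13, unadjusted p under 0.05, adjusted p = 0.721). *Gpdh1*, glycerol-3-phosphate dehydrogenase, was at 0.34 (SE 0.16) in the same hours. Of 12 genes of the tricarboxylic acid cycle 8 were measured, 4 positive and 4 negative in the CA comparison (median -0.01), and *SdhB*, a succinate dehydrogenase subunit, was at 0.16 (SE 0.15). *Ogdh*, a subunit of the 2-oxoglutarate dehydrogenase complex, was at 0.41 (SE 0.20, adjusted p = 0.999) in the thermophase hours. Of 9 paralogs of the glycolysis genes 8 had a probe set and 4 passed the filter, and their median change was 0.00, with *Pglym87* at 0.21 (SE 0.11) in CA and 0.24 (SE 0.11, unadjusted p under 0.05, adjusted p = 0.883) in AA. Of the 34 neighbouring genes 0 passed limma with adjustment in any of the 5 comparisons, and 8 of their 170 changes (4.71%) had an unadjusted p under 0.05, against 4.37% over all probe sets.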

How the data were processed

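Heads of *y w* flies were profiled with 1 Affymetrix Drosophila Genome 1 array per time point. The authors computed expression with the robust multi-array average (RMA), experiment by experiment, and deposited values whose log base is taken here as log2 from their range. Neither the base nor the RMA version is given in the sources used here. The table held 14010 probe sets, 44 of them controls that were not tested. Of the rest 12443 carried 1 gene symbol, 327 several and 1196 none, and 12394 matched the RefSeq gene table. That table gave the names and the gene identifiers by which the probe sets of the listed genes were found.

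The 4 group means were fitted over all 12 arrays in limma (8 residual and 4.24 prior degrees of freedom, median SE 0.11), two-sided, with Benjamini-Hochberg adjustment over 11149 probe sets at 0.05. The methods name F24 without a formula, and it was computed here as the 24-h share of variance, against all 60 distinct time orders for 1 day and 10000 random ones for both. Relations between arrays used 100000 permutations. Scripts were tested on simulated data.

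The members and the gene lists were chosen with earlier results of these data known. Every member is named, with up to 3 members of each neighbouring list by smallest p in a comparison, and the 8 probe sets most like the mean of the members. Gene lists were described by counts and medians. Where a listed gene had several probe sets of its own, the 1 with the highest mean stood for it. *Tret1-1* and *Argk1* had 2 each, and the values of the others are not given here. Alternatives covered the filter, normalization, variance model, array weights, the hours and arrays included, hour of day as a block and 2 covariates. The fit without AA2 and CA22 was chosen after seeing the data. Precision is limited by the number of arrays. The model was fitted with limma 3.58.1 in R 4.3.3, and the rest ran in Python 3.11.15 with pandas 2.3.3, scipy 1.17.1, matplotlib 3.10.9 and numpy 2.4.6.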

Additional observations from a re-analysis of the deposited data

How the results depend on the processing

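Of the 7 transcripts 0 passed in the 5 group comparisons under the alternatives run, except with array weights, which called 1, *Pgi* in CA (0.59). The 24-h scores were rerun only without the filter and by harmonic regression, with 0 of 7 in each. Over all probe sets the calls went from 1 to 82 in CA with array weights, from 0 to 15 in the cryophase hours with hour of day as a block and from 0 to 3 in AA with only the arrays compared. No change turned sign with quantile normalization, median centring, no filter, limma-trend, hour of day as a block, only the arrays compared, or without AA2 and CA22. With the *eIF-4a* covariate the median moved to 0.11 in AA, to 0.066 for the difference of differences and to 0.069 in the cryophase hours. Under it *Pfk* in CA turned to -0.10, *Pgk* and *Eno* in AA to 0.17 and 0.11, and *Ald1* and *Eno* in the difference of differences to -0.16 and -0.025. In the cryophase hours *Pgi*, *Ald1*, *Gapdh1*, *Pgk* and *Eno* turned to 0.0011, 0.13, 0.069, 0.12 and 0.24, and *Ald1* in the thermophase hours to -0.024. With the gut score the median in AA was 0.029, and *Pgk* and *Eno* in AA turned to 0.029 and 0.077. Without hours 2 and 14 the median was 0.064 in CA, -0.10 in AA, 0.17 for the difference of differences, -0.19 in the cryophase hours and 0.057 in the thermophase hours. In that fit *Pfk* in CA was at -0.17, and *Ald1* at -0.014 in the difference of differences and 0.0035 in the cryophase hours. *Pfk*, *Ald1* and *Pglym78* were at -0.056, -0.0105 and -0.0195 in the thermophase hours. The change of *Pgi* in CA, 0.38 in the main fit, was 0.19 (SE 0.16) without hours 2 and 14 and 0.24 without CA14 alone. Leaving out 1 array at a time gave -0.10 to 0.26 for *Pfk* in CA, -0.084 to 0.22 for *Ald1* and -0.40 to 0.0093 for *Eno* in AA, and -0.025 to 0.28 for *Ald1* in the difference of differences. In the thermophase hours it gave -0.15 to 0.15 for *Ald1*, -0.089 to 0.24 for *Pglym78* and -0.11 to 0.64 for *Pgk*. With 1 array left out the median over the 7 ranged from 0.083 to 0.44 in CA (lowest without CA14), -0.40 to -0.0032 in AA, 0.26 to 0.67 for the difference of differences, -0.47 to -0.22 in the cryophase hours and 0.006 to 0.37 in the thermophase hours. Beyond the array weights and the covariates' own construction, the cause was not tested. Averaging several probe sets of a gene gave no value of its own, since each member had 1. Pairing the days by hour of day as a block changed no call of a member.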

Other observations

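The 8 probe sets with 1 gene symbol most like the mean of the glycolysis transcripts were chosen out of 9935 candidates. They were *CG16953* (r = 0.956 over the 12 arrays), *Rpn1* (0.953), a subunit of the proteasome's regulatory particle, *eIF3d1* (0.937), a translation initiation factor subunit, *CG8500* (0.936), *eEF1alpha2* (0.928), a translation elongation factor, *nec* (0.924), a serine protease inhibitor, *Hsp68* (0.921), a heat-shock protein, and *CG42327* (0.92). *eEF1alpha2* ran from 5.75 at CA2 to 7.97 at AA2, and *nec* from 7.53 at CA22 to 8.48 at AA2. All 8 had an r with the *eIF-4a* control difference between -0.838 (*Rpn1*) and -0.951 (*nec*). Of the candidates 2.91% had an r above 0.8 with the glycolysis mean. These genes were picked for their likeness, so the values are a description without a test.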
